A study of Mus musculus with 12 samples.

Results

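The fibroblast and matrix genes outside the collagens described here form a list of 38 genes, out of 54532 in the count table of 12 mouse mammary tumors. They were found by gene name, and some of them were chosen by their rise in a single bexarotene tumor, replicate 1, so that high values in that tumor are given as a description and without a test. The tumors came from MMTV-Neu mice, in which the mouse mammary tumor virus promoter drives Neu (Erbb2), in its wild-type and unactivated form, in mammary epithelium. The transgene is therefore not directed to the fibroblasts of a tumor. Mice were randomized once a tumor had reached a set diameter, and were fed for 10 days a control diet (4 tumors), MSU-42011 at 100 mg/kg diet (4 tumors) or bexarotene at 100 mg/kg diet (4 tumors). Both compounds are agonists of the retinoid X receptor (RXR), a nuclear receptor that binds DNA as a partner of other receptors, and the comparisons ask how each diet changed the expression of these genes. The age of the mice is not given in the sources used here, and the groups otherwise share genotype and tissue.

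Fibroblasts secrete and assemble the extracellular matrix. Collagen fibrils are spaced by small leucine-rich proteoglycans, elastic tissue is built from elastin laid on fibrillin microfibrils, lysyl oxidases crosslink both, and matricellular proteins such as periostin, tenascin C and the thrombospondins tune how cells attach to the network. In mammary tumors such genes are expressed mainly in the stroma, and platelet-derived growth factor receptor alpha (Pdgfra) and decorin (Dcn) are common markers of fibroblasts.

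Total counts per tumor ranged from 16583413 to 25925027, and a count of 3, taken as the floor of detection, corresponded to 0.111 to 0.184 CPM (read counts scaled to a common library size). Values below are in CPM normalized by edgeR's TMM method unless another unit is named. Bexarotene replicate 1 stood apart from the other tumors, with a median correlation of 0.915 across genes against 0.961 to 0.972 for the others, and because genes were chosen by its values the tests below were fitted on the other 11 tumors. Of the 38 genes, 36 passed the filter on low counts, and the glutamate receptor gene Gria3 and the kinesin gene Kif26b did not. Islr2 shares 181 exon bases with Islr on the same strand, and Mfap4 shares 89 exon bases with Mapk7 on the opposite strand, so counts of these genes are uncertain. In whole tumor pieces, fewer cells of a type and less RNA per cell cannot be told apart.

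RefSeq promoter windows (GRCm38.p6, 250 bases before to 50 bases after a start) were found for 20 of the 38 genes, as 25 windows. The upstream parts of 3 of them, from Postn, Ogn and Fndc1, are shown as examples. Capitals mark TATAAA (or TTTATA, its reverse), AGGTCA (or TGACCT), which is the half-site that RXR partners bind, and GGAATG (or CATTCC). These 3 genes were high together in the same tumors, but that does not single them out. Other genes were high there too, with marked sequences (Thbs2 and Thbs4) or without them (Bgn, P4ha3 and Fbln1). All 3 examples have TATAAA or TTTATA, so they do not represent the 25 windows. The window of Postn is chr3:54360857-54361106 on the plus strand, that of Ogn is chr13:49607765-49608014 on the plus strand, and that of Fndc1 is chr17:7827303-7827552, read on the minus strand.
Postn: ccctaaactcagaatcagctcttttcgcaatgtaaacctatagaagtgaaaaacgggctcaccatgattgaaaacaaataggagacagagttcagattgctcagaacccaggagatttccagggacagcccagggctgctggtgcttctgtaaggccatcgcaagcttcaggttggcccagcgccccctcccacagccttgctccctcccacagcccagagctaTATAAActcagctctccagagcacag
Ogn: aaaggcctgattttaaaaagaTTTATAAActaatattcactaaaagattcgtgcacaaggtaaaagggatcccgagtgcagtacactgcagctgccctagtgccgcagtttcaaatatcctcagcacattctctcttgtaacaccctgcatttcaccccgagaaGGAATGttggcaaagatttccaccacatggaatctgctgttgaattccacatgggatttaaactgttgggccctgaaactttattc
Fndc1: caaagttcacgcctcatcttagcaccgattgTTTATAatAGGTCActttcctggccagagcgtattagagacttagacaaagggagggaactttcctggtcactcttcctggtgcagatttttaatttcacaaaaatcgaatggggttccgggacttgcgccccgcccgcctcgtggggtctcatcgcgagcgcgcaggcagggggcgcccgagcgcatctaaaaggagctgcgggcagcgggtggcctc
In Postn the TATAAA began 26 bases before the start, and in Fndc1 the AGGTCA began 211 bases before it. TATAAA was present in 28% of the 25 windows, from Dpt, Fndc1, Ogn, Postn, Thbs2 and Tnc, against 13.6% of all 32851 windows. AGGTCA was present in 8%, from Fndc1 and another window of Postn, against 16.3% of all. GGAATG was present in 16%, from Islr2, Ogn, Prrx1 and Thbs4, against 14.7% of all. The sequence TGACTCA, searched with its reverse TGAGTCA, was present in 0 of 25 windows and in 5.2% of all. In Ogn the TATAAA and TTTATA matches overlap.

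For each gene and tumor, the mean over control tumors was subtracted from log2(normalized CPM + 0.5), and the 12 tumors were ranked by the median of these differences over the 36 genes. Bexarotene replicate 1 was first with a median of 5.92, bexarotene replicate 2 next with 2.58, followed by control replicate 1 with 1.01. The other 9 tumors lay close together, from MSU-42011 replicate 3 at 0.34 and bexarotene replicate 3 at 0.04 down to bexarotene replicate 4 at −0.66 and control replicate 2 at −0.92. The diets were therefore mixed along the rank: bexarotene tumors held places 1, 2, 5 and 11, control tumors places 3, 8, 9 and 12, and MSU-42011 tumors places 4, 6, 7 and 10. Counted gene by gene, 38 of 38 genes in bexarotene replicate 1, 35 in bexarotene replicate 2 and 34 in control replicate 1 were above their own median over the 12 tumors, against 6 to 20 in each of the others. Control replicate 2 was the lowest tumor for 18 of the 38 genes.

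**Figure D1:**
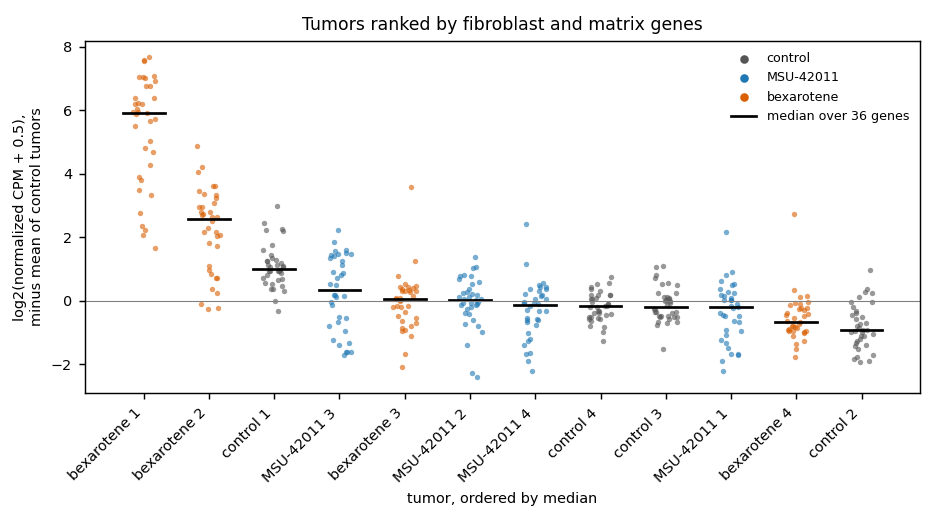
Each point is 1 of 36 genes in 1 tumor, on the y axis as log2(normalized CPM + 0.5) minus the mean of the control tumors, and black bars are medians. Bexarotene replicate 1 has its median at 5.92 and bexarotene replicate 2 at 2.58, and no other tumor is above 1.01.

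The 38 genes together took 1.57% of all counts in bexarotene replicate 1 and between 0.0609% and 0.276% in the other 11 tumors. Bexarotene replicate 1 was the highest of the 12 tumors for 37 of the 38 genes, which is the feature for which some were chosen, and for 19.1% of the 15504 genes that passed the filter over 12 tumors. It had at least 2 times the next highest tumor for 35 genes, at least 5 times for 32 and at least 10 times for 19. Just inside the criterion of being highest was Thbs1, at 1.32 times the next tumor, and just outside was Comp, at 0.397 times.

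**Figure D2:**
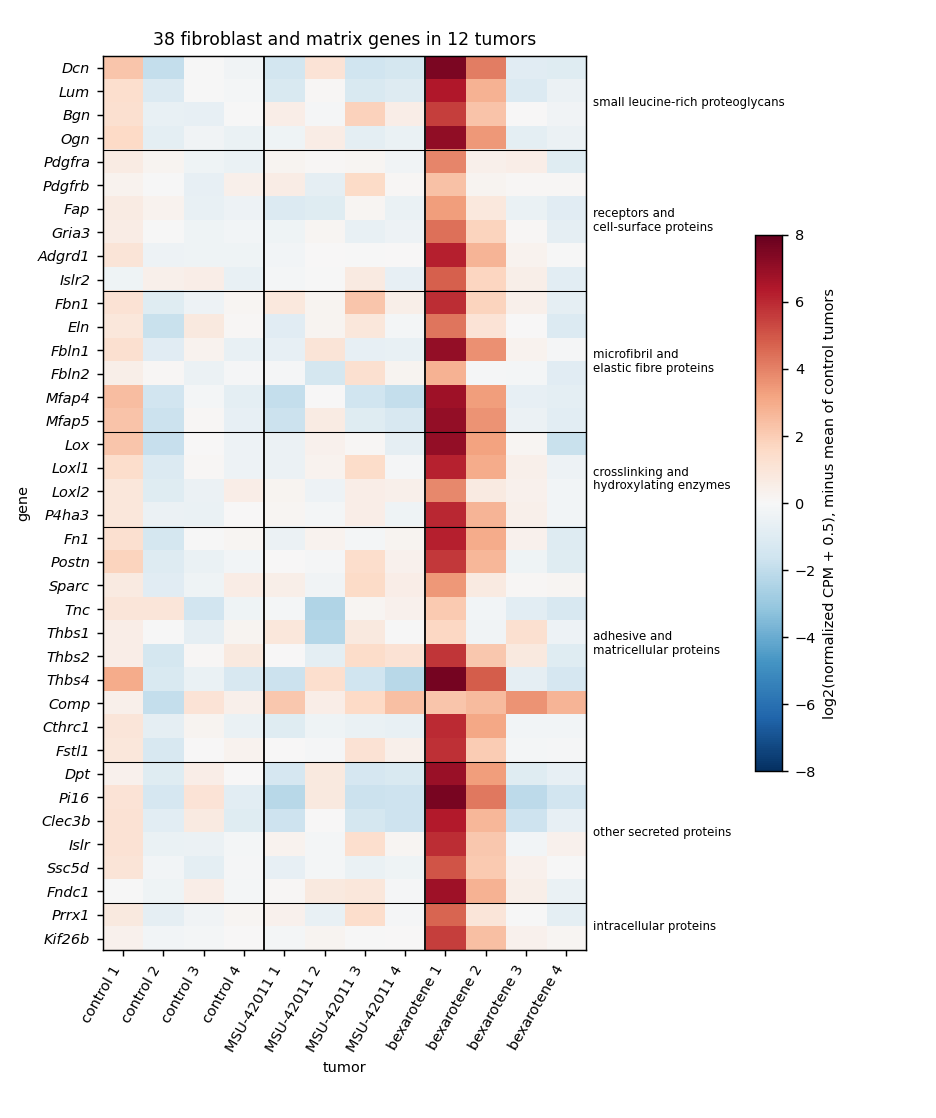
Rows are the 38 genes by role, columns are the 12 tumors by diet, and color gives log2(normalized CPM + 0.5) minus the mean of the control tumors. The column of bexarotene replicate 1 is dark red in nearly all rows and that of bexarotene replicate 2 paler red, while Comp is high in all 4 bexarotene tumors and does not follow this pattern.

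The small leucine-rich proteoglycans Dcn, Lum, Bgn and Ogn, which bind collagen fibrils, followed bexarotene replicate 1 in 4 of 4 cases, at 9.24 to 12.7 times the next tumor. Dcn (ENSMUSG00000019929) had 7.95, 0, 1.34 and 0.991 CPM in control replicates 1 to 4, 0.165, 3.39, 0.108 and 0.21 with MSU-42011, and 345, 30.4, 0.484 and 0.429 with bexarotene. Its value was thus high in 2 bexarotene tumors and at or below most control tumors in the other 2, and the 0 counts in control replicate 2 allow up to 0.142 CPM. Bgn, the most abundant of the 4, had 90, 24.6, 23.1 and 35.7 CPM in control tumors, 53.1, 34.9, 134 and 52.5 with MSU-42011, and 1700, 184, 37.8 and 29.7 with bexarotene. Bexarotene replicate 2 was second for all 4, and Lum and Ogn were at 2.49 CPM or less in the other 10 tumors.

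Of the receptors and cell-surface proteins, 6 of 6 were highest in bexarotene replicate 1, by 1.79 to 11.9 times the next tumor. Pdgfra (ENSMUSG00000029231), the receptor that marks fibroblasts, had 10.1, 7.39, 4.7 and 4.18 CPM in control tumors, 7.2, 6.79, 7.04 and 4.95 with MSU-42011, and 100, 8.25, 9.25 and 3 with bexarotene. Apart from replicate 1 the groups overlapped throughout, and bexarotene replicate 2 was not raised for Pdgfra as it was for Dcn. Pdgfrb, the related receptor of pericytes and fibroblasts, was at 133 CPM in bexarotene replicate 1, only 1.79 times MSU-42011 replicate 3 (74.5 CPM), and at 15.1 to 39.4 CPM in the remaining tumors. The fibroblast activation protease gene Fap was at 20.4 CPM in bexarotene replicate 1 and at 0.495 to 3.24 CPM elsewhere. The adhesion receptor gene Adgrd1 (60.8 CPM), Gria3 (17.7 CPM) and the leucine-rich repeat gene Islr2 (27.5 CPM) were at 5.1 CPM or less in each of the other tumors.

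The microfibril and elastic fibre genes also placed bexarotene replicate 1 first in 6 of 6 cases. Fbn1, which encodes the fibrillin of microfibrils, was at 512 CPM there and at 29 CPM in bexarotene replicate 2, below MSU-42011 replicate 3 (38.6 CPM). Elastin (Eln) was at 363 CPM against 4.97 to 39.3 CPM in the other tumors. Fbln1 (146 CPM), Mfap4 (198 CPM) and Mfap5 (235 CPM), which encode proteins bound to elastic fibres and microfibrils, were second in bexarotene replicate 2, with 13.5, 18.2 and 21.3 CPM. Fbln2 behaved otherwise: at 642 CPM in bexarotene replicate 1 it was 2.84 times MSU-42011 replicate 3 (226 CPM), and bexarotene replicate 2, at 87.2 CPM, lay within the control range of 67.6 to 129 CPM.

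Enzymes that crosslink or hydroxylate collagen and elastin were highest in bexarotene replicate 1 in 4 of 4 cases. The lysyl oxidase genes Lox, Loxl1 and Loxl2 were at 502, 278 and 94.1 CPM there, and at 35.6, 29 and 10.5 CPM in bexarotene replicate 2. For Loxl2 the second tumor was instead control replicate 1, with 12.3 CPM. The prolyl hydroxylase subunit gene P4ha3 was at 61.8 CPM, at 5.72 CPM in bexarotene replicate 2 and at 1.31 CPM or less in the other 10 tumors.

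Of the adhesive and matricellular genes, 9 of 10 were highest in bexarotene replicate 1. Fn1, which encodes the adhesive glycoprotein fibronectin, was at 1520 CPM in bexarotene replicate 1, at 156 CPM in replicate 2 and at 7.1 to 47.9 CPM in the other 10 tumors. Postn had 62.7, 8.47, 12.5 and 15.7 CPM in control tumors, 18.5, 17.1, 48.9 and 22.7 with MSU-42011, and 949, 115, 14.2 and 9.13 with bexarotene. Both genes were therefore high in 2 of 4 bexarotene tumors, with the other 2 inside the control range. Thbs2, Thbs4, Cthrc1 and Fstl1 gave the same order, with 400, 552, 59 and 870 CPM in bexarotene replicate 1 and 33.2, 78.1, 7.58 and 60.8 CPM in replicate 2.

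Sparc, which encodes a collagen-binding matricellular protein, had 354, 114, 167 and 320 CPM in control tumors, 304, 181, 636 and 318 with MSU-42011, and 2430, 352, 230 and 240 with bexarotene. Tnc, which encodes tenascin C, had 33, 33.6, 5.56 and 13 CPM in control tumors, 15.1, 2.79, 19.2 and 22 with MSU-42011, and 73.5, 14.5, 9.1 and 6.74 with bexarotene. Thbs1, which encodes a thrombospondin that restrains vessel growth, had 369, 252, 159 and 293 CPM in control tumors, 481, 52.2, 448 and 251 with MSU-42011, and 814, 212, 615 and 194 with bexarotene. In these 3 genes bexarotene replicate 1 was 3.82, 2.19 and 1.32 times the next tumor, and bexarotene replicate 2 lay within the spread of the control tumors.

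Comp (ENSMUSG00000031849), which encodes cartilage oligomeric matrix protein of the thrombospondin family, was the 1 gene of 38 that was not highest in bexarotene replicate 1. Its values were 169, 34, 281 and 175 CPM in control tumors, 591, 189, 395 and 699 with MSU-42011, and 616, 746, 1550 and 863 with bexarotene. All 4 bexarotene tumors were above all 4 control tumors, replicate 1 was the lowest of them, and MSU-42011 tumors overlapped the control range in 1 tumor only, replicate 2. Of 10 cartilage, bone and tendon markers, Acan, Ibsp and Bglap were at 0.33 CPM or less in all 12 tumors, while Sox9 was at 87.4 to 137 CPM and Alpl at 37.5 to 153 CPM. The summed CPM of the 10 was 199 to 285 in control tumors, 155 to 182 with MSU-42011, 146 in bexarotene replicate 1 and 196 to 225 in bexarotene replicates 2 to 4.

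The other secreted proteins followed bexarotene replicate 1 in 6 of 6 cases, with ratios of 8.61 to 16.6, and had bexarotene replicate 2 second in 6 of 6. Pi16, a protease inhibitor gene that marks fibroblasts around vessels, had 4.45, 0.426, 4.38 and 0.819 CPM in control tumors, 0, 3.51, 0.217 and 0.251 with MSU-42011, and 451, 42.8, 0.0484 and 0.307 with bexarotene. The largest ratio to the next tumor in the whole set was that of Fndc1, a fibronectin domain gene, at 106 CPM against 6.39 CPM in bexarotene replicate 2. Dermatopontin (Dpt, 184 CPM), the lectin gene Clec3b (131 CPM), Islr (104 CPM) and the scavenger receptor gene Ssc5d (30.4 CPM) were at 15.2, 9.4, 7.25 and 3.53 CPM in replicate 2. Of the 2 genes of intracellular proteins, the mesenchymal transcription factor gene Prrx1 was at 82.3 CPM, 10 times MSU-42011 replicate 3, and Kif26b at 34.2 CPM, 10.1 times bexarotene replicate 2.

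**Figure D3:**
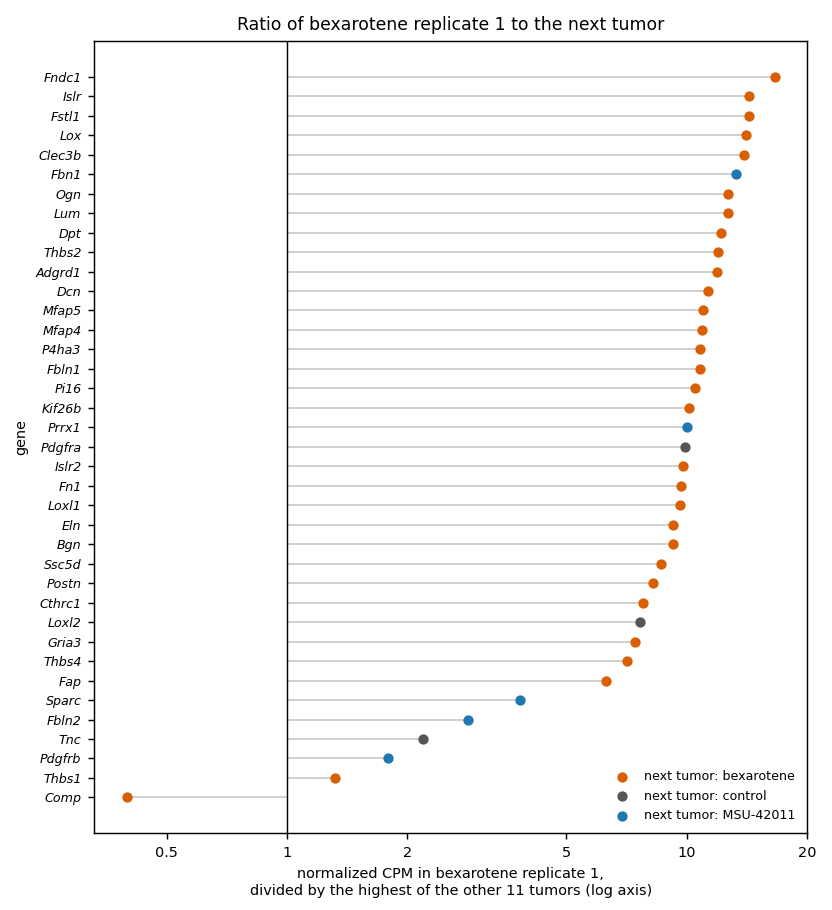
Points give, for each of 38 genes, normalized CPM in bexarotene replicate 1 divided by the highest of the other 11 tumors, on a log axis, colored by the diet of that next tumor. Comp alone is left of 1, at 0.397, and Thbs1, Pdgfrb, Tnc, Fbln2 and Sparc lie between 1.32 and 3.82.

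Levels can be compared between genes on the authors' FPKM, which are per length. In control tumors Sparc (181 ± 87.7 FPKM, SD, n = 4) and Comp (162 ± 102 FPKM) were first, followed by Thbs1 (80.2 ± 25.7 FPKM), Fbln2 (59.6 ± 15.7 FPKM) and Bgn (28.9 ± 21.2 FPKM), and each of these differed from its neighbour by less than the sum of their SDs. Kif26b was last, at 0.0323 ± 0.0166 FPKM. In bexarotene replicate 1 the order was Sparc (1980 FPKM), Bgn (1220 FPKM), Fstl1 (830 FPKM), Comp (643 FPKM), Postn (436 FPKM) and Fbln2 (426 FPKM). Thbs1 went from place 3 to place 9 and Pdgfrb from place 10 to place 29. Within the control group the SD over tumors exceeded the mean for 13 of 38 genes in CPM.

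Bexarotene replicate 1 was at least 10 times each of the 10 tumors outside bexarotene replicates 1 and 2 for 29 of the 38 genes. Prrx1 was just inside this limit, at 10 times, and Pdgfra just outside, at 9.91 times, and the other 8 genes outside it were Loxl2 (7.63), Fap (7.15), Sparc (3.82), Fbln2 (2.84), Tnc (2.19), Pdgfrb (1.79), Thbs1 (1.32) and Comp (0.397). Over the 29 genes, bexarotene replicate 2 had a median of 9.19% of the value in bexarotene replicate 1, with quartiles of 7.85% and 10.4% and a range of 5.68% to 14.1%. In no other tumor did the 29 genes keep so even a ratio, but low counts make many of these ratios uncertain. Of the 38 genes, 9 in control replicate 2 and 12, 9 and 8 in MSU-42011 replicates 1, 3 and 4 had 3 counts or fewer. In control replicate 1, MSU-42011 replicate 2 and bexarotene replicate 2 there were 0 such genes. Quartiles were 25.8-fold, 45.3-fold and 16.5-fold apart in MSU-42011 replicates 1, 3 and 4, and 1.81-fold in MSU-42011 replicate 2. Control replicate 1 had a median of 3.16% with quartiles 1.83-fold apart, and the remaining tumors had medians of 0.306% to 1.14% with quartiles 1.81-fold to 45.3-fold apart, against 1.32-fold in bexarotene replicate 2. Among genes outside the set that passed the filter and reached 20 CPM in bexarotene replicate 1, 112 met this 10-fold limit. Over these 112, bexarotene replicate 2 had a median of 8.66% of bexarotene replicate 1. The filter and the 20 CPM were not required of the 29 genes. These are descriptions, because the limit was set on values in bexarotene replicate 1.

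**Figure D4:**
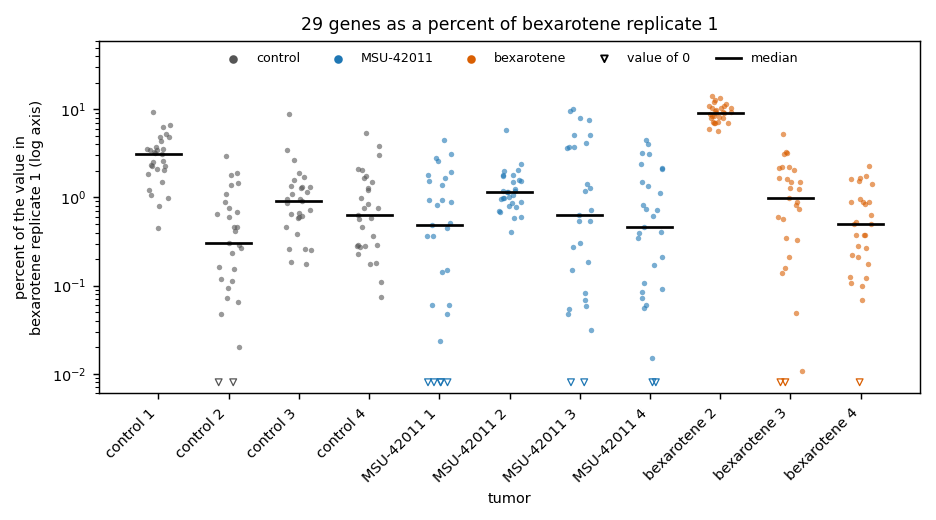
Each point is 1 of 29 genes, on a log y axis as the percent of its normalized CPM in bexarotene replicate 1, for each of the other 11 tumors, with black bars for medians and open triangles for values of 0. Points of bexarotene replicate 2 lie in a narrow band between 5.68% and 14.1%, while those of most other tumors spread over more than 10-fold.

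Genes of other cell types moved with these values in part. In bexarotene replicate 1 the summed CPM of 11 macrophage markers was 2430, against 302 to 802 in control tumors, 382 to 884 with MSU-42011 and 616 in bexarotene replicate 2, and 11 of 11 were highest there. The sum of 10 endothelial markers was 552, against 106 to 197 in control tumors and 164 in bexarotene replicate 2, and 10 of 10 were highest in bexarotene replicate 1. Luminal epithelial markers were lower, at a sum of 3120 against 5060 to 6520 in control tumors and 5200 in bexarotene replicate 2.

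Skeletal muscle markers summed to 332 in bexarotene replicate 1, 9.3 in bexarotene replicate 2, 166 in control replicate 1 and at most 14.5 in any MSU-42011 tumor. Of these 12 markers, 5 passed the filter over 12 tumors and 5 of 5 were highest in bexarotene replicate 1, while 1, Tnnc2, was at 0 there. Adipocyte markers summed to 221, 42.5 and 42.1 to 65.4 in bexarotene replicate 1, bexarotene replicate 2 and the control tumors, and pericyte and smooth muscle markers to 845, 290 and 245 to 383. Hence bexarotene replicate 2, second for 28 of the 38 genes, was within the control range for macrophage, endothelial, luminal epithelial, adipocyte and pericyte sums. The part of these cell types in the values of the 38 genes was not tested.

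Further genes of the same pathways followed bexarotene replicate 1 to different degrees. Their lists were written from general knowledge but with earlier results of these data known, so the counts are a description. That tumor was the highest of 12 for 26 of 29 other fibroblast genes, 10 of 11 other elastic fibre genes, 15 of 18 other matricellular and adhesive genes, 12 of 20 other proteoglycans and 11 of 18 other collagen-processing genes. Over all 15504 genes the share was 19.1%. The summed CPM of other fibroblast genes was 4420 there, against 469 to 856 in control tumors and 759 in bexarotene replicate 2. For collagen-processing genes it was 2740 against 1910 to 2520 in control tumors, a much smaller difference. Abundant genes lead these sums: in control tumors Scara5 was at 132 to 208 CPM and P4hb at 825 to 1080 CPM. Taken gene by gene, the median log2 difference from control for other fibroblast genes was 3.56 in bexarotene replicate 1 and 1.01 in replicate 2. For collagen-processing genes it was 0.938 and −0.017.

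The MSU-42011 tumors held a split among the 38 genes that the median hides. MSU-42011 replicate 3 was the highest of the 10 tumors outside bexarotene replicates 1 and 2 for 13 genes, namely Bgn, Pdgfrb, Islr2, Fbn1, Eln, Fbln2, Loxl1, Sparc, Thbs2, Fstl1, Islr, Fndc1 and Prrx1. The same tumor had 3 counts or fewer for 9 genes and was below MSU-42011 replicate 2 for 17, among them Dcn (0.108 against 3.39 CPM), Thbs4 (0.379 against 6.42 CPM), Pi16 (0.217 against 3.51 CPM) and Dpt (0.108 against 2.18 CPM). MSU-42011 replicate 2 in turn was low for Thbs1 (52.2 CPM), Tnc (2.79 CPM), Fbln2 (35.4 CPM) and Pdgfrb (15.1 CPM), where it was the lowest of the 12 tumors. Among MSU-42011 tumors, replicate 3 also had the highest macrophage (884), endothelial (263) and pericyte (513) sums, and replicate 2 the highest skeletal muscle sum (14.5). These genes were picked after their values were seen.

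In MSU-42011 tumors compared with control tumors, 0 of 36 genes passed edgeR's quasi-likelihood test at a Benjamini-Hochberg adjusted p under 0.05, and 0% of all 15619 genes did. DESeq2 and limma also called 0 of the genes described here, but DESeq2 gave no p in any of the 3 comparisons for 8 of them, Dcn, Dpt, Fbln1, Mfap4, Mfap5, Ogn, Postn and Thbs4, which it could not call. The median log2 fold change of the 36 genes was −0.12 against 0.0014 over all genes, and 15 of 36 (41.7%) were above 0, against 50.3% of all genes. At an unadjusted p under 0.05, 1 gene was higher and 0 were lower, against 1.54% and 1.09% of all genes. Groups did not overlap for 0 of 36 genes, against 1.97% of all genes. The direction depended on single tumors and on the filter: without control replicate 1, 24 of 32 genes were higher (median 0.47), and with at least 10 counts in every tumor 73.7% of 19 genes were (median 0.24), whereas without MSU-42011 replicate 3 only 19.4% of 36 genes were (median −0.39).

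Comp had the smallest p in that comparison, with a log2 fold change of 1.51 (SE 0.537; edgeR p = 0.0158, adjusted p = 0.9998; exact permutation p = 0.0571, two-sided, 4 against 4 tumors). Mfap4 was at −2.99 (SE 1.61), Cthrc1 at −2.03 (SE 1.26), Fbn1 at 0.99 (SE 0.626) and Sparc at 0.59 (SE 0.399), with edgeR adjusted p-values of 0.9998. Pdgfra was at −0.02 (95% interval −0.80 to 0.76), and Dcn at −1.43 (95% interval −4.82 to 1.97). An exact permutation test of 4 against 4 tumors, or 3 against 4, cannot give a p below 0.0286.

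For bexarotene the test used replicates 2 to 4, and 0 of 36 genes were called against control tumors (edgeR, adjusted p at least 0.9777), as were 0% of all genes, by limma 0 of the 36 and by DESeq2 0 of those with a p. The median log2 fold change was 1.19 against 0.0062 over all genes, and 32 of 36 genes (88.9%) were above 0, against 51.1% of all genes. At an unadjusted p under 0.05, 5 genes were higher and 0 lower, against 1.60% and 1.75% of all genes. That count of 5 was not stable: it ranged from 1 (without control replicate 2, control replicate 4 or bexarotene replicate 2) to 12 (without control replicate 1), and was 10 without bexarotene replicate 4 and 8 without replicate 3. Bexarotene replicate 2 set this direction: when it was left out, 6 of 35 genes were above 0 and the median was −0.47. This tumor had a median of 9.19% of bexarotene replicate 1 over 29 genes, in a near-even ratio. The counts above are therefore not independent of the choice of genes by replicate 1. The groups did not overlap for 1 gene of 36 (2.78%), Comp, against 3.82% of all genes, so the count is not above that share. In bexarotene replicates 3 and 4, Comp was also the only gene of the 38 for which both tumors were above every control tumor. The share of all genes that did so was not computed.

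The log2 fold change of Comp was 2.68 (SE 0.581; edgeR p = 0.000595, adjusted p = 0.9777; exact permutation p = 0.0286, two-sided, 3 against 4 tumors), and it stayed between 2.28 and 3.06 when any 1 tumor was left out. Fndc1 was at 2.28 (SE 0.884), Adgrd1 at 2.24 (SE 0.951), P4ha3 at 2.11 (SE 0.918) and Fbln1 at 2.58 (SE 1.18), and in all 4 the value of bexarotene replicate 2 was above all control tumors while those of replicates 3 and 4 were not. Without bexarotene replicate 2, Fndc1 was at 0.08, P4ha3 at 0.07 and Fbln1 at −0.22. Dcn was at 2.05 (95% interval −1.32 to 5.41), and Pdgfra at 0.06 (95% interval −0.78 to 0.90).

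With all 12 tumors, which include the values the choice used, 36 of 36 genes were above 0 for bexarotene against control, from Tnc at 0.29 to Fndc1 at 5.79, with a median of 4.06 and no gene called by edgeR.

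**Figure D5:**
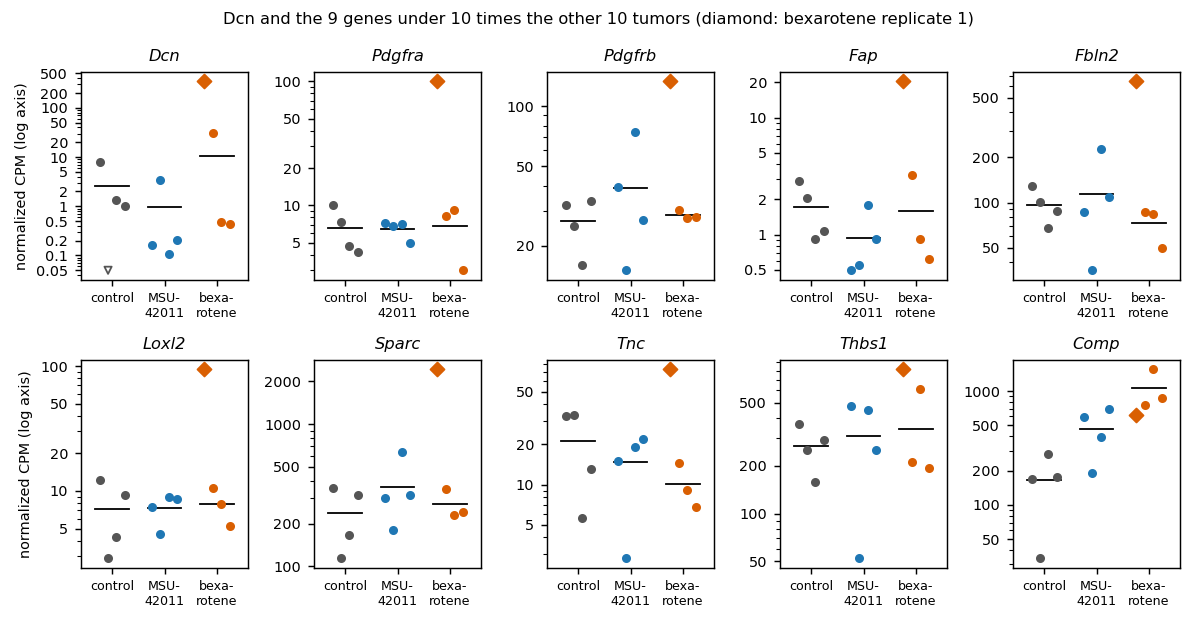
Normalized CPM on log axes in the 3 diet groups for Dcn and the 9 genes whose value in bexarotene replicate 1 (diamond) was under 10 times the tumors other than bexarotene replicates 1 and 2, with lines at group means without the diamond and an open triangle for 0. Only for Comp does the diamond lie below the other bexarotene tumors, at 616 CPM against 746 to 1550.

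MSU-42011 and bexarotene were given at the same dose in the diet for the same time, and were compared directly over the 36 genes, the last of 3 comparisons that share tumors. Of these, 0 were called (edgeR, adjusted p at least 0.9393), as were 0% of all genes, by limma 0 of the 36 and by DESeq2 0 of those with a p. Against bexarotene replicates 2 to 4, 6 of 36 genes (16.7%) were higher with MSU-42011, against 50.0% of all genes, with a median log2 fold change of −1.27. At an unadjusted p under 0.05, 0 genes were higher and 13 lower, against 1.59% and 1.47% of all genes. The count of 13 fell to 3 without MSU-42011 replicate 1, to 3 without MSU-42011 replicate 4, to 4 without MSU-42011 replicate 3 and to 8 without control replicate 3. Without bexarotene replicate 2, 28 of 35 were higher, the median was 0.49 and 0 genes had an unadjusted p under 0.05. Through that tumor, the counts here too are not independent of the choice of genes by bexarotene replicate 1.

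Groups did not overlap for 3 genes, Cthrc1, Ssc5d and Comp, all lower with MSU-42011, against 3.42% of all genes. Cthrc1 had 0, 4, 3 and 3 counts in MSU-42011 tumors and 159, 7 and 5 in bexarotene replicates 2 to 4, and Ssc5d had 2, 6, 3 and 6 against 74, 14 and 7, so that in both the groups were parted by few counts. Their log2 fold changes were −4.33 (SE 1.26) and −2.78 (SE 0.930), with exact permutation p-values of 0.0286 each and edgeR adjusted p-values of 0.9393. Comp was at −1.17 (95% interval −2.40 to 0.06; edgeR adjusted p = 0.9393; exact permutation p = 0.0571), with 189 to 699 CPM against 746 to 1550. Mfap4 was at −4.18 (SE 1.68), Fbln1 at −3.02 (SE 1.21) and Adgrd1 at −2.61 (SE 0.969). Dcn was at −3.47 (95% interval −7.08 to 0.13) and Pdgfra at −0.08 (95% interval −0.92 to 0.76), an interval that still allows a difference between the compounds in either direction.

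Of the highest values over the 11 tumors, 26 of the 36 genes had theirs in bexarotene replicate 2, against 13.5% of all 15619 genes. Because bexarotene replicate 2 kept a near-even share of replicate 1, this count is not independent of the choice of genes and is a description. Among the other pathway lists, edgeR called 0 of 20 other proteoglycans, 0 of 11 elastic fibre genes, 0 of 18 collagen-processing genes, 0 of 18 matricellular and adhesive genes and 0 of 29 fibroblast genes in each of the 3 comparisons. Their median log2 fold changes lay between −0.24 and 0.33. In the direct comparison P3h2, a collagen prolyl hydroxylase gene, was at 1.01 (edgeR adjusted p = 0.939) and Cpxm1 at −3.34 (edgeR adjusted p = 0.939). The microfibril gene Mfap2 was at 1.92 for bexarotene replicates 2 to 4 against control (edgeR adjusted p = 0.978).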

How the data were processed

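RNA from 12 mammary tumors was extracted with an RNeasy kit, enriched for poly(A) from 1 ug and sequenced by Novogene. The submitters' processing notes name STAR 2.6.1d, featureCounts 1.5.0-p3 and DESeq2. How strand was handled in counting and which genome build was used are not given in the sources used here; coordinates matched GENCODE release 21 of the mouse annotation (GRCm38) for 98.3% of genes. The authors deposited raw read counts per gene, not normalized, and their values as FPKM, scaled by them to gene length and library size. Tables of the authors' fold changes and p-values were not used. Samples were grouped by their titles.

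Counts were filtered with edgeR's filterByExpr (15619 genes in 11 tumors, 15504 in 12), scaled by TMM and tested with edgeR 4.0.16 (quasi-likelihood F test, 1 mean per group, no covariate) in R 4.3.3, with Benjamini-Hochberg adjustment over all genes and a threshold of 0.05. Bexarotene replicate 1 was left out of the tests, since some genes were chosen by their values in it. Replicate 2, which followed it in most of these genes, was kept, so tests that use it are not free of that choice. The biological coefficient of variation was 0.276 in the 11 tumors without bexarotene replicate 1 and 0.338 in all 12 tumors. DESeq2 (1.42.0), the package the study used, is an alternative, as is limma 3.58.1 on log2 FPKM plus 1 or 0.1. Other filters and scalings, the replicate number as a block, and leaving out each tumor were further alternatives. DESeq2 and limma were run only without bexarotene replicate 1. The study's own DESeq2 test of all 12 tumors was not repeated. From that test the paper places Gria3, Fndc1 and Islr2 among its most significant genes. Standard errors come from the F statistic, and single genes were also tested by exact two-sided permutation. The genes and lists were chosen with earlier results of these data known. Fold changes are given for Pdgfra and Dcn, for the 5 genes with the smallest p in each comparison and for genes whose groups do not overlap; other genes with values in the text were picked after these were seen. On counts simulated for MSU-42011 against control (15619 genes), 68% of 2-fold and 86% of 4-fold changes were recovered, with 9 false calls. Changes of 2, 4, 16 and 64-fold were planted together, in 50 genes each. So many changed genes loosen the adjusted threshold, so these shares are too high for data in which no gene was called. Changes were placed only in genes with a mean above 1 CPM over the 11 tumors, so recovery below that level is not known. Nor are the shares specific to the genes described here, of which Dcn had an SE of 1.56 in that comparison. The paper gives 4 mice per group. Upper limits given for counts of 0 cover counting error only, while the intervals of fold changes include the spread between tumors. Labels give no sequencing batch.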

Additional observations from a re-analysis of the deposited data

Results flagged for a closer look

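A tumor was marked where it lay far from the other 3 of its diet group by Dixon's test at the 95% level, a test that by chance marks about 1 in 20 groups. It was not applied in the bexarotene group, because some of the genes were chosen by their values in bexarotene replicate 1. Over 15504 genes it marked 5.94% in the control group and 6.29% in the MSU-42011 group.

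In the control group 8 of the 38 genes were marked, all high in control replicate 1: Dcn at 7.95, Ogn at 2.14, Adgrd1 at 1.25, Mfap4 at 9.61, Lox at 17.3, Postn at 62.7, Thbs4 at 20.8 and Islr at 3.44 CPM. In this tumor skeletal muscle markers summed to 166 CPM, against 4.91 CPM in the lowest control tumor. In the MSU-42011 group 9 genes were marked, all high in MSU-42011 replicate 2: Dcn at 3.39, Lum at 0.788, Fbln1 at 1.82, Mfap4 at 1.39, Mfap5 at 2.36, Thbs4 at 6.42, Dpt at 2.18, Pi16 at 3.51 and Clec3b at 1.15 CPM.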

How the results depend on the processing

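In every alternative run, 0 of the genes were called in each of the 3 comparisons by edgeR, DESeq2 or limma, although DESeq2 gave no p for 8 of them (1, Thbs4, without bexarotene replicates 1 and 2), and bexarotene replicate 1 was the highest tumor for 37 of 38 genes by FPKM, by CPM without TMM and by DESeq2's size factors. DESeq2 and limma were run only without bexarotene replicate 1, unlike the study's own DESeq2 test of all 12 tumors, which was not repeated. The rank of the 12 tumors kept bexarotene replicates 1 and 2 and control replicate 1 in places 1 to 3 and control replicate 2 in place 12 in each. Comp kept its direction in all settings.

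The medians moved in both comparisons that use bexarotene. For MSU-42011 against control the median changed sign with some settings, but moved by less than the SD of the control tumors' medians in the rank. With all 12 tumors the median log2 fold change was 4.06 (bexarotene over control) and −3.94 (MSU-42011 over bexarotene), and with bexarotene replicates 1 and 2 both left out (DESeq2, added after seeing the data) −0.422 and 0.486. In that last setting Adgrd1 was at −0.00326, Fbln1 at −0.246, Dcn at −2.5 and Pdgfra at −0.098 for bexarotene over control, while for MSU-42011 over bexarotene Dcn was at 1.08 and Pdgfra at 0.0764. For MSU-42011 against bexarotene the median was −0.146 with at least 10 counts in every tumor, which tests 19 genes, and −0.363 with limma on log2(FPKM + 1). Without 1 tumor the median ran from −0.47 (without bexarotene replicate 2) to 1.89 in the comparison of bexarotene with control, and from −1.79 to 0.492 (without bexarotene replicate 2) in that of MSU-42011 with bexarotene. For bexarotene against control, Fbln1 ran from −0.217 to 3.64, Dcn from −2.46 to 3.75 and Pdgfra from −0.224 to 0.411. For MSU-42011 against control, Dcn ran from −3.9 to 0.281 and Pdgfra from −0.187 to 0.259, both highest without control replicate 1. For MSU-42011 against bexarotene, Dcn ran from −5.95 to 1.04 and Pdgfra from −0.43 to 0.203. Pdgfra also changed sign with limma on log2(FPKM + 1), at 0.0657 against control and 0.0334 against bexarotene, and on log2(FPKM + 0.1), at 0.109 and 0.0965. The cause was not tested.

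Same-numbered tumors did not deviate together (10 pairs, correlations −0.346 to 0.203, 2 over 0.1), and the labels state no pairing. So few tumors per group cannot exclude one. With the replicate block, Pdgfra for MSU-42011 against control was at 0.0424, the medians of the 3 comparisons were −0.105, 0.735 and −0.927, and no gene was called.

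Counts of genes with an unadjusted p under 0.05 moved with many settings. In both comparisons with bexarotene, counts with all 12 tumors are left out, because they use values by which some genes were chosen. For bexarotene against control, 5 became 11 with no filter, and 1 with at least 10 counts in every tumor, with the replicate block or with limma. For MSU-42011 against bexarotene, 13 became 19 with no filter, 8 with robust estimation or DESeq2 and 6 with the replicate block. That count became 2 and 0 with limma at the lower and higher pseudocount, and 1 with at least 10 counts in every tumor. For MSU-42011 against control, 1 became 5 without MSU-42011 replicate 2 and stayed at 1 or 2 in the other settings. Medians of that comparison ran from −0.391 (without MSU-42011 replicate 3) to 0.475 (without control replicate 1), and were 0.241 with at least 10 counts in every tumor and 0.00934 with limma on log2(FPKM + 0.1).

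Depth limits the 8 genes that had 0 counts in at least 1 tumor, whose levels there are known only as below the floor of 3 counts.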

Other observations

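Genes outside the list were also far higher in bexarotene replicate 1 than elsewhere. Of all tested genes, members of the list included, 153 were at least 10 times all but 1 of the other tumors in bexarotene replicate 1, against 0 or 1 gene in each of the other 11 tumors by the same measure. Only genes at 20 CPM or more in the tumor concerned were counted. The microfibril gene Mfap2 and the carboxypeptidase-like gene Cpxm1, named by their p in the comparisons, were at 25.8 and 105 CPM in bexarotene replicate 1 and at 3.29 and 9.21 CPM in bexarotene replicate 2. Mfap2 was at 0.88 CPM or less and Cpxm1 at 2.79 CPM or less in the other 10 tumors. Of 5 tested cartilage, bone and tendon markers, 0 were highest in bexarotene replicate 1.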
